A study of Mus musculus with 20 samples.

Results

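Hoxa genes are read here through the open chromatin around them. The peaks described are the 19 ATAC-seq peaks, of 125343 in the whole data set, that lay in or nearest to Hoxa2, Hoxa3, Hoxa4, Hoxa5, Hoxa6, Hoxa7, Hoxa9, Hoxa10 or Hoxa11 on mouse chromosome 6. A peak took the name of the protein-coding RefSeq gene that held its centre, the shortest where several did, and otherwise of the gene with the nearest boundary. Hoxa3 received 6 peaks, Hoxa10 5, Hoxa7 and Hoxa9 2 each, and Hoxa2, Hoxa4, Hoxa5 and Hoxa11 1 each. No peak was named for Hoxa6. All 19 passed the filter on low counts. The RefSeq model of Hoxa3 is long and spans Hoxa4, Hoxa5 and Hoxa6, so a peak named for Hoxa3 can lie far from its start, and 6 of the 19 centres lay outside the gene that names them.

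ATAC-seq marks open DNA by the insertion of sequencing adapters with the Tn5 transposase. It was done on bone marrow cells sorted as lineage-negative, c-Kit+ and Sca1+ (LSK cells), a gate that holds stem cells and multipotent progenitors of the blood. There were 5 genotypes with 4 libraries each on the C57Bl/6J strain, each library pooling 2 mice of 3 to 4 months. The WT controls were +/+;Vav-Cre. The Idh1 R132H mutants were Idh1LSL-R132H/+;Vav-Cre, the Idh2 R140Q mutants were Idh2LSL-R140Q/+;Vav-Cre and the Idh2 R172K mutants were Idh2LSL-R172K/+;Vav-Cre. The knockout was Tet2-/-. Vav-Cre is a recombinase driven by a promoter of blood cells, and LSL is a stop cassette that Cre removes, so the Idh alleles are switched on across the blood lineage and not in LSK cells alone. WT and the Idh genotypes carried Vav-Cre, whereas the label of Tet2-/- names no Cre, so a comparison of Tet2-/- with WT also compares mice labelled with and without Cre.

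Hox genes encode homeobox transcription factors and sit in clusters in the order in which they are used along the body axis. In blood stem and progenitor cells the posterior Hoxa genes, above all Hoxa9 and Hoxa10, act with the cofactors Meis1 and Pbx to sustain self-renewal, and they are raised in several acute leukaemias. The methyltransferase Kmt2a keeps the cluster active and Polycomb complexes keep it silent. The Idh1 and Idh2 changes studied make the enzymes produce 2-hydroxyglutarate, which inhibits 2-oxoglutarate dioxygenases, among them Tet2, an enzyme that oxidizes methylated cytosine at CG dinucleotides.

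Start windows of 300 bases, 250 before and 50 after the gene start, were taken from RefSeq (GRCm38.p6, the assembly of mm10) for the genes that stand for the different outcomes below. All Hoxa genes are read from the minus strand, the windows are written 5′ to 3′ on that strand, and each CG dinucleotide, the site of DNA methylation, is in capitals. The Hoxa5 window, of which 183 bases lay in the peak with the largest fall, held 29 CG. The Hoxa10 window, of which 182 bases lay in a raised peak, held 21. The Hoxa11 window, wholly inside a raised peak, held 15. The Hoxa3 window, wholly inside a peak that was not called, held 20.
Hoxa5 start window (chr6:52204538-52204837): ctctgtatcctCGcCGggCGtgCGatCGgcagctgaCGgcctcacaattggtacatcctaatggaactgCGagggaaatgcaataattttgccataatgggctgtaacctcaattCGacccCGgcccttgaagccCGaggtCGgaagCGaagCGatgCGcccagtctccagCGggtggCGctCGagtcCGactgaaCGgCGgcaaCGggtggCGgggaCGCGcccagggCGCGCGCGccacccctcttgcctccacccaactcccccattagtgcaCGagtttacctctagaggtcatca
Hoxa10 start window (chr6:52234890-52235189): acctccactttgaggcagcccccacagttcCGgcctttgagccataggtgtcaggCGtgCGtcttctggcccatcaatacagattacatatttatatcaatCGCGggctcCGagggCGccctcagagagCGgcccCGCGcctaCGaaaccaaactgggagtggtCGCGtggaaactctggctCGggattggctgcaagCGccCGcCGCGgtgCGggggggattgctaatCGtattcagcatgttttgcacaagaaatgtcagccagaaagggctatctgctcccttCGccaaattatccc
Hoxa11 start window (chr6:52245761-52246060): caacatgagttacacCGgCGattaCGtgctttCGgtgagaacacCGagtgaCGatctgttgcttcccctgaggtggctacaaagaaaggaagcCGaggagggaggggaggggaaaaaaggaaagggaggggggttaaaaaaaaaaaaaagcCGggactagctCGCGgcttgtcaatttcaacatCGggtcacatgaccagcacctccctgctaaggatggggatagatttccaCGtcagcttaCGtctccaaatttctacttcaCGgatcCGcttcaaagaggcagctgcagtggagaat
Hoxa3 start window (chr6:52213018-52213317): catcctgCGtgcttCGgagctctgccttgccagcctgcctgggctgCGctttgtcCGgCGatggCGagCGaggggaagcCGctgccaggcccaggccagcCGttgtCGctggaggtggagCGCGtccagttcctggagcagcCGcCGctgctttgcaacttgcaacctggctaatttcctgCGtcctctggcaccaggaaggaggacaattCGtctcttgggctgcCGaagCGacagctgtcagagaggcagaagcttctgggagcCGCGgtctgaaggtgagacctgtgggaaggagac

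The median over the 32851 mouse start windows was 7 CG, and 12.9% of them held at least as many as Hoxa5. Windows were found for 8 of the 9 Hoxa genes, with 2 for Hoxa10. The Hoxa6 window held 26 CG, those of Hoxa2 and Hoxa7 9 each and the Hoxa9 window 4. The Hoxa2, Hoxa7 and Hoxa9 windows did not overlap any of the 19 peaks, and the Hoxa6 window shared 126 bases with a peak named for Hoxa3. The peak downstream of Hoxa10 at chr6:52228990-52230240 held Mir196b, whose hairpin lies at chr6:52230081-52230165 on the minus strand. The mature miR-196b arms are shown because this microRNA of the cluster is known to target Hox messages, with the seed, bases 2 to 8, in capitals.
mmu-miR-196b-5p: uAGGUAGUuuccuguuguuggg
mmu-miR-196b-3p: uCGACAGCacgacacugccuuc

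Short motifs were searched on both strands of the 9 Hoxa windows, and none of them contains another. The MEIS letters TGACAG occurred in the Hoxa2 and Hoxa3 windows, against 19.2% of all windows. The ETS letters AGGAAG occurred in Hoxa3, Hoxa9, Hoxa10 and Hoxa11 windows, against 35.4% of all windows. For Hoxa10 the match was in the window at chr6:52240805-52241104, which is not printed, and not in the printed one. The joint HOXA9 and MEIS1 letters TGATTTAT (0.977% of all windows), the RUNX letters TGTGGT (16.8%), the GATA letters AGATAA (11.2%) and a CTCF motif (0.557%) had no match in the 9 windows. These counts describe the letters of the windows and not binding.

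In WT LSK cells the open chromatin of the cluster was concentrated around Hoxa7, Hoxa9, Hoxa10 and the start of Hoxa3. Levels are counts per 1e6 counts in peaks (CPM, with TMM-scaled library sizes), as mean ± SD over 4 libraries, and are compared between peaks only per kb of peak width. The 2 Hoxa9 peaks stood highest, with 36.2 ± 3.89 CPM per kb at chr6:52225783-52226515 and 33.8 ± 1.65 CPM per kb at chr6:52221327-52222388. The peak over the Hoxa3 start at chr6:52212679-52213733 had 29.3 ± 1.42 CPM per kb, and the Hoxa7 peak at chr6:52216918-52218014 had 26.8 ± 1.53 CPM per kb. From the first to the second of these 4 the step was smaller than the SD of the higher one, and Hoxa7 and the Hoxa3 intron peak at chr6:52211424-52212249 (26.7 ± 2.03 CPM per kb) lay within 1 SD of each other.

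The order then ran down through the Hoxa10 peaks, which spanned 22.1 ± 1.47 to 9.56 ± 0.868 CPM per kb. Hoxa4 had 10.7 ± 0.557, Hoxa11 8.07 ± 0.627 and Hoxa5 7.5 ± 3.97 CPM per kb, and the Hoxa5 SD covered the distance to both neighbours in the order. Hoxa2 had 3.73 ± 0.518 CPM per kb, and the lowest was a Hoxa3 peak with 1.33 ± 0.342 CPM per kb. The median was 14 CPM per kb over the 19 peaks, 5.05 over all tested peaks and 16.7 over all tested peaks of the promoter class. Of the 19, 15 lay above the median of all tested peaks and 7 above that of the promoter class, while 9 of the 19 were themselves of the promoter class in the deposited annotation. Among the 9 peaks of the anterior genes Hoxa2 to Hoxa5, which pattern the hindbrain and neck, the 2 at the start of Hoxa3 stood highest and the others had 12.3 CPM per kb or less. By position these 2 lay between the Hoxa5 and Hoxa7 peaks.

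**Figure D1:**
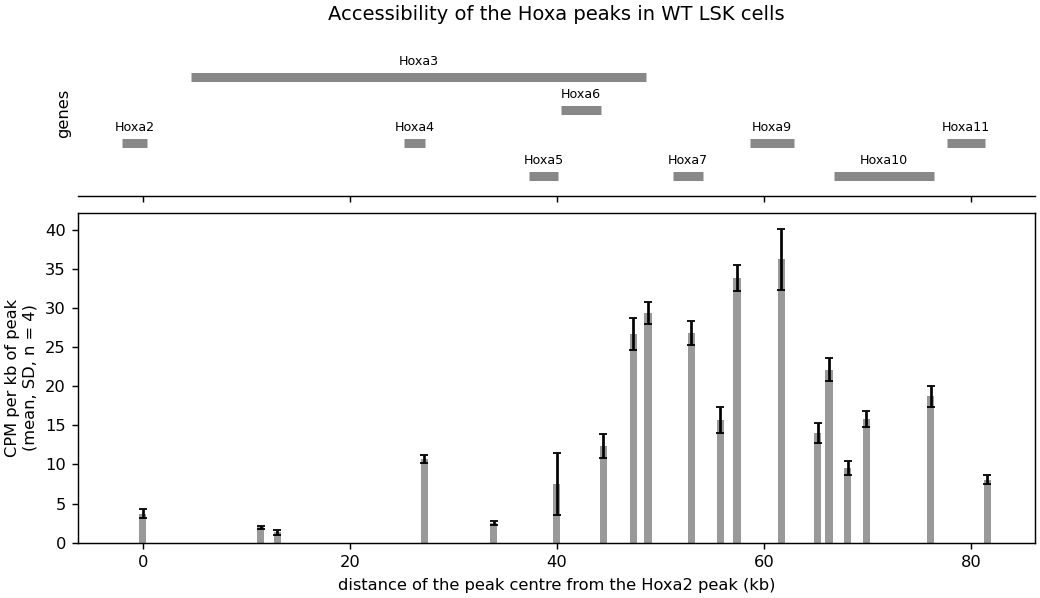
Mean CPM per kb of peak in the 4 WT libraries (bars, SD as error bars) at the 19 Hoxa peaks, placed by the distance of the peak centre from the Hoxa2 peak in kb, with the RefSeq gene bodies above. The 2 Hoxa9 peaks reach 36.2 and 33.8 CPM per kb, and the peaks within Hoxa3 at 11.4 and 13.0 kb stay at 2 and 1.33 CPM per kb.

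Depth over the 20 libraries ran from 10.5 to 27.9 M (1e6) counts in peaks, with Idh2 R172K replicate 2 the shallowest. Of the genes targeted, Idh2 had 7 of 8 peaks called in Idh2 R172K and 0 of 8 in Idh2 R140Q, Idh1 had 0 of 2 in Idh1 R132H, and Tet2 had 0 of 30 in Tet2-/- (lowest edgeR adjusted p = 0.101). The label does not say which part of Tet2 is deleted, so these peaks do not check it. The LSK markers were open in WT, with 64.8 CPM at the strongest Kit peak, 49.6 at Cd34, 77.7 at Flt3 and 3.14 at Ly6a, the gene of Sca1. Some genes of other lineages were as open, with 49.6 CPM at the strongest Csf1r peak, 47.6 at Klf1 and 45.5 at Itga2b. Others were weak, such as Cd3e with 3.46 and S100a8 with 1.72 CPM, so these levels do not check the gate. Summed over the marker lists, Idh2 R172K libraries lay above all WT libraries for erythroid (183 to 188 against 155 to 166 CPM), megakaryocyte (178 to 206 against 145 to 160) and T and NK cell genes (24.2 to 27.1 against 21.4 to 22.8). They lay below all WT libraries for B cell genes (66.5 to 74.9 against 77.3 to 86). The ranges overlapped for LSK (1109 to 1167 against 1084 to 1143), granulocyte and monocyte (162 to 182 against 177 to 201) and stromal genes (371 to 392 against 361 to 394). Peak by peak the calls ran otherwise in part: 5 higher and 8 lower of 25 erythroid peaks (median log2 fold change 0.04), 4 and 0 of 9 megakaryocyte peaks (0.22), 3 and 4 of 15 T and NK peaks (-0.27) and 2 and 6 of 21 B cell peaks (-0.15). Granulocyte and monocyte genes had 2 higher and 16 lower of 25 (-0.40), LSK genes 44 and 60 of 181 (-0.09) and stromal genes 18 and 30 of 78 (-0.18). These Idh2 R172K counts, and the 7 of 8 Idh2 peaks, stand beside 25.1% called higher and 27.9% lower of all tested peaks. Cd3g, Cd8a, Cd79a and Ly6g had no peak named for them. The part of these shifts in the Hoxa changes was not tested, and in sorted bulk cells a change in the mix of cells and a change in accessibility per cell cannot be told apart.

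In Idh2 R172K the posterior end of the cluster was more open than in WT by small amounts, and 3 weakly open sites at the anterior end and at Hoxa5 lost most of their signal. Of the 19 peaks, 9 were higher, 3 were lower and 7 were not called at an adjusted p of 0.05 (edgeR's quasi-likelihood test, Benjamini-Hochberg adjusted over 123908 peaks). Across all tested peaks 25.1% were called higher and 27.9% lower in this comparison, so calls as such were common. The raised peaks gained 1.11-fold to 1.39-fold, and the 3 lowered ones kept 0.183 to 0.301 of the WT level. Of the 10 peaks of Hoxa7, Hoxa9, Hoxa10 and Hoxa11, 8 rose and 0 fell, with a median log2 fold change of 0.21. Of the 9 peaks named for Hoxa2, Hoxa3, Hoxa4 and Hoxa5, 1 rose and 3 fell, with a median of -0.14. This split by gene name along the cluster was not planned. The Hoxa3 peaks at 44.5, 47.4 and 48.8 kb from the Hoxa2 peak lay between the Hoxa5 and Hoxa7 peaks. The raised one, at 47.4 kb, was among them, so these counts do not describe the anterior end alone. In the planned split by class, 4 rose and 1 fell of the 9 promoter-class peaks (median 0.15). Of the 10 other peaks 5 rose and 2 fell (median 0.20), so the classes differed little.

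Strong and weak peaks of the whole data set also differed in this way. Among all peaks with at least 10 CPM in WT, 42.8% were called higher and 16.9% lower, with a median log2 fold change of 0.13. Among the 11 Hoxa peaks at that level 7 rose and 0 fell, with a median of 0.18. Among all peaks under 10 CPM, 21% were called higher and 30.5% lower, with a median of -0.07, and of the 8 weak Hoxa peaks 2 rose and 3 fell, with a median of -0.26. The direction along the cluster therefore ran together with WT level, and the 2 were not separated. The median over the 19 peaks was 0.15, against 0.01 over all tested peaks and 0.14 over the promoter class, in which 6203 of 15572 peaks rose and 2342 fell. Summed over the 19 peaks, the signal was 269 ± 12.7 CPM in WT and 296 ± 14.8 CPM in Idh2 R172K, with ranges of 255 to 280 and 279 to 309.

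**Figure D2:**
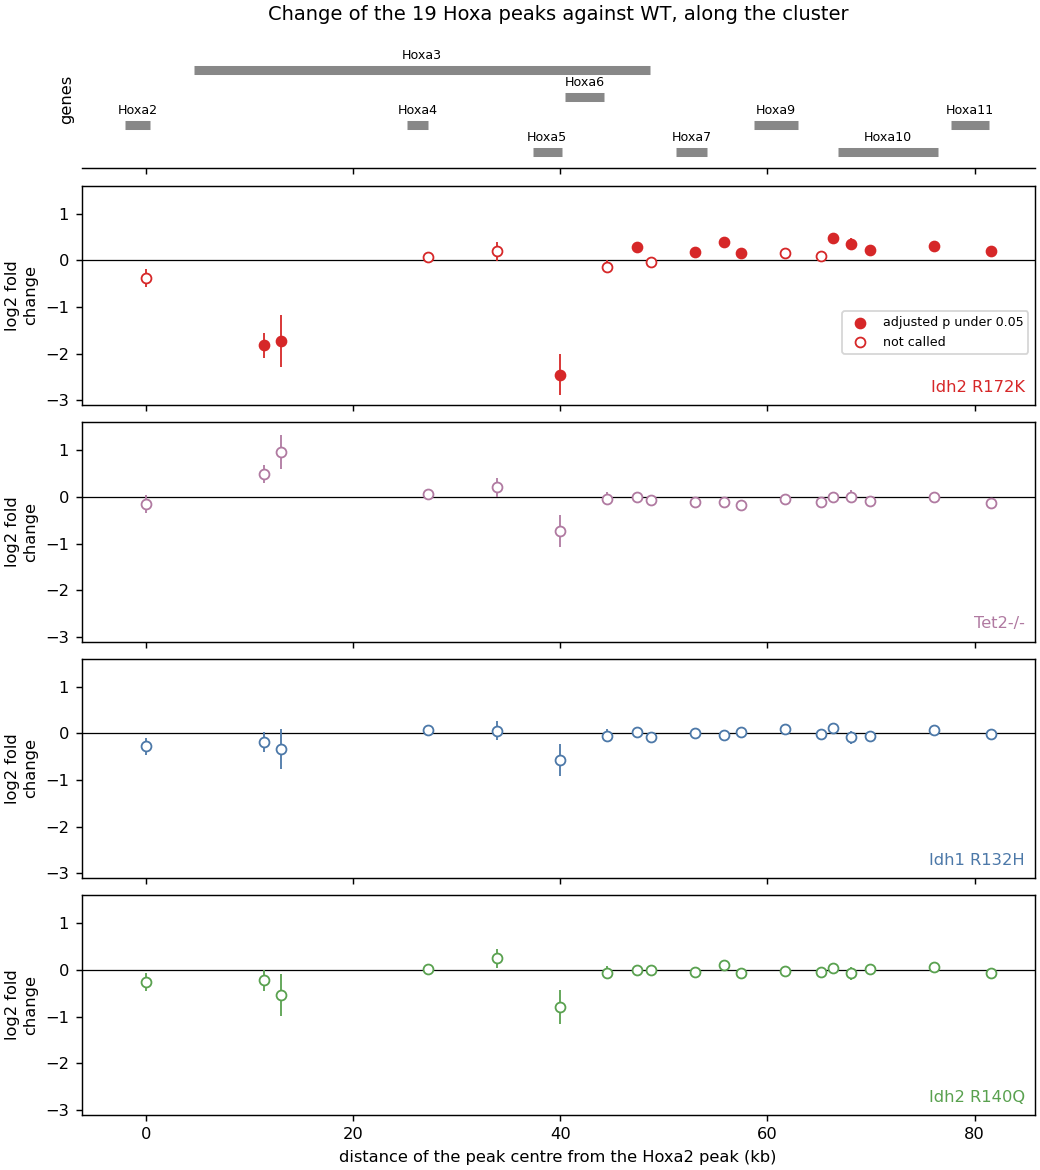
Log2 fold change against WT (points, SE as error bars) of the 19 Hoxa peaks in 4 genotypes, placed by distance from the Hoxa2 peak in kb, with filled points for an edgeR adjusted p under 0.05. In Idh2 R172K the points from 53.0 to 81.6 kb lie between 0.10 and 0.48 and the 3 lowered peaks between -1.73 and -2.45, and no point is filled in the other genotypes.

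Hoxa2, an anterior gene of hindbrain patterning, had a weak exon peak at chr6:52164106-52164757. In WT, replicates 1 to 4 had 2.66, 2.58, 2.56 and 1.93 CPM, and in Idh2 R172K they had 2.04, 1.75, 1.89 and 1.69 CPM. The values were 1.84, 2.39, 1.93 and 1.9 CPM in Idh1 R132H, 1.94, 2.62, 1.7 and 1.92 CPM in Idh2 R140Q and 1.68, 1.17, 2.63 and 2.97 CPM in Tet2-/-. The ranges of WT and Idh2 R172K overlapped through WT replicate 4. The means were 2.43 ± 0.338 CPM in WT and 1.84 ± 0.155 CPM in Idh2 R172K, a log2 fold change of -0.38 (SE 0.20, edgeR adjusted p = 0.105), which was not called.

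Hoxa3, a gene of neck and thymus development, carried 2 of the 3 lowered peaks. The first was the intron peak at chr6:52175401-52176182. The WT libraries had 1.4, 1.76, 1.58 and 1.52 CPM in the order of replicates 1 to 4, and the Idh2 R172K libraries 0.385, 1.07, 0.296 and 0.338 CPM. The other genotypes had 1.03, 1.77, 1.26 and 1.54 CPM in Idh1 R132H, 1.2, 1.66, 1.35 and 1.21 CPM in Idh2 R140Q and 2.1, 1.7, 2.36 and 2.55 CPM in Tet2-/-. All Idh2 R172K libraries lay below all WT libraries, and replicate 2 of Idh2 R172K stood well above the other 3. The means were 1.56 ± 0.149 CPM in WT and 0.522 ± 0.368 CPM in Idh2 R172K, a log2 fold change of -1.82 (SE 0.27, edgeR adjusted p = 5.03e-07). Tet2-/- had 2.18 ± 0.366 CPM, a log2 fold change of 0.49 (SE 0.19, edgeR adjusted p = 0.176), and the direct difference of Idh2 R172K from Tet2-/- was -2.31 on the log2 scale (edgeR adjusted p = 9.05e-10).

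The second lowered Hoxa3 peak, at chr6:52177258-52177508, lay at the start of the long noncoding gene 5730596B20Rik inside the Hoxa3 model and was the weakest of the 19. Replicates 1 to 4 gave 0.455, 0.286, 0.263 and 0.328 CPM in WT and 0.0769, 0.0974, 0.111 and 0.113 CPM in Idh2 R172K. They gave 0.0709, 0.285, 0.158 and 0.634 CPM in Idh1 R132H, 0.247, 0.178, 0.299 and 0.202 CPM in Idh2 R140Q and 0.84, 0.682, 0.657 and 0.526 CPM in Tet2-/-. The raw counts were 4 to 12 per library in WT and 1 to 3 in Idh2 R172K. Over the 4 libraries a group these are 31 and 8 counts, a depth-corrected ratio of 0.288 with an exact 95% interval of 0.114 to 0.64 that covers counting error only. All Idh2 R172K libraries lay below all WT libraries, and the fit gave a log2 fold change of -1.73 (SE 0.56, edgeR adjusted p = 0.00835). Tet2-/- lay above WT in all 4 libraries with 0.676 ± 0.129 CPM, a log2 fold change of 0.96 (SE 0.36, edgeR adjusted p = 0.152), which was not called.

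Hoxa4 had 1 promoter peak, at chr6:52190930-52192420. In WT, replicates 1 to 4 had 15.9, 16.7, 14.8 and 16.4 CPM, and in Idh2 R172K they had 16.7, 16.3, 17.5 and 16.1 CPM. The values were 15.7, 18.3, 15.8 and 18.2 CPM in Idh1 R132H, 16.2, 17.2, 18 and 13.9 CPM in Idh2 R140Q and 14.2, 15.5, 17.7 and 18.7 CPM in Tet2-/-. The genotypes overlapped, with 16 ± 0.831 CPM in WT and 16.6 ± 0.616 CPM in Idh2 R172K and a log2 fold change of 0.06 (SE 0.08, edgeR adjusted p = 0.59).

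Hoxa5, whose product is known in lung and skeletal patterning and in blood progenitors, carried the largest change of the cluster. Its peak at chr6:52204093-52204720 covers an exon and 183 bases of the start window printed above, and it overlaps the noncoding gene Hoxaas3. The WT libraries had 3, 7.45, 2.23 and 6.15 CPM in the order of replicates 1 to 4, and the Idh2 R172K libraries 0.808, 1.07, 0.702 and 1.13 CPM. The other genotypes had 2.2, 3.53, 2.64 and 4.89 CPM in Idh1 R132H, 2.01, 4.22, 3.04 and 2.22 CPM in Idh2 R140Q and 2.38, 2.19, 3.44 and 3.46 CPM in Tet2-/-. Every Idh2 R172K library lay below every other library of the series, whereas WT itself ranged widely, with replicates 2 and 4 above replicates 1 and 3. The means were 4.71 ± 2.49 CPM in WT and 0.927 ± 0.204 CPM in Idh2 R172K, a log2 fold change of -2.45 (SE 0.44, edgeR adjusted p = 0.000242). The differences of Idh2 R172K from Idh1 R132H (-1.88, edgeR adjusted p = 0.00357), Idh2 R140Q (-1.65, edgeR adjusted p = 0.0111) and Tet2-/- (-1.71, edgeR adjusted p = 0.0082) were called as well.

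The spread of Hoxa5 within genotypes went with a split of the libraries by Xist, a noncoding RNA made from the inactive X chromosome. Summed over 3 Xist peaks, 10 libraries had 23.9 to 29.9 CPM and 10 had 3.83 to 4.67 CPM, and each genotype had 2 of each. The labels used here give no sex. At the Hoxa5 peak the Xist-high and Xist-low libraries had means of 6.8 and 2.62 CPM in WT, 4.21 and 2.42 in Idh1 R132H, 3.22 and 2.53 in Idh2 R140Q, 1.1 and 0.755 in Idh2 R172K and 3.45 and 2.29 in Tet2-/-. The high libraries lay above the low ones without overlap in 4 of 5 genotypes, the exception being Idh2 R140Q. With the split as a term over all genotypes the Hoxa5 difference was 0.79 on the log2 scale (SE 0.12, edgeR adjusted p = 0.000184). Among the 19 peaks only Hoxa5 was called for the split, for which 1.04% of all tested peaks were called.

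The fall of Hoxa5 in Idh2 R172K was present in both sets, with -2.61 among Xist-high libraries (edgeR adjusted p = 6.23e-10) and -1.83 among Xist-low libraries (edgeR adjusted p = 4.26e-06). The difference between the sets was -0.79 (SE 0.45, edgeR adjusted p = 0.970), and 0 of the 19 peaks were called for it, with 1 at an unadjusted p under 0.05. Within Xist-low libraries 9 Hoxa peaks were higher and 3 lower than WT, and within Xist-high libraries 3 were higher and 2 lower. The share of all tested peaks called within each set is not given here. The Xist-high Idh2 R172K libraries were also the shallowest of that genotype, with 10.5 and 18.81 M counts in peaks against 26.97 and 27.81 M. Depth and the Xist split therefore cannot be told apart in these counts. The sign was that of the full comparison for 19 and 17 of the 19 peaks.

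**Figure D3:**
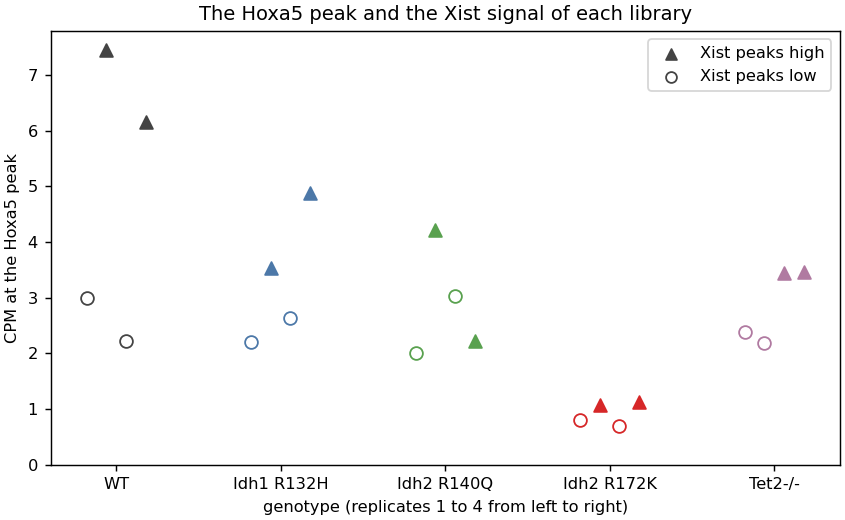
CPM at the Hoxa5 peak in each of the 20 libraries by genotype, with filled triangles for libraries high at the Xist peaks and open circles for those low. The Idh2 R172K libraries lie at 0.702 to 1.13 CPM, below all others, and the WT triangles at 7.45 and 6.15 CPM lie above the WT circles at 3.00 and 2.23.

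Towards the start of Hoxa3 the picture changed from loss to gain within a few kb. The intron peak at chr6:52211424-52212249 rose. Replicates 1 to 4 gave 22.8, 23.9, 20.0 and 21.6 CPM in WT and 27.4, 26.1, 28.4 and 25.8 CPM in Idh2 R172K. They gave 22.9, 21.1, 23 and 22.5 CPM in Idh1 R132H, 21.8, 20.7, 22 and 23.4 CPM in Idh2 R140Q and 20.3, 21, 22.5 and 23.8 CPM in Tet2-/-. All Idh2 R172K libraries lay above all libraries of the other genotypes, with 22.1 ± 1.67 CPM in WT and 26.9 ± 1.17 CPM in Idh2 R172K and a log2 fold change of 0.29 (SE 0.07, edgeR adjusted p = 0.000383). The neighbouring peak over the Hoxa3 start at chr6:52212679-52213733, which holds the whole Hoxa3 window, had 32.9, 30.4, 30.9 and 29.4 CPM in WT and 31.6, 31.5, 30.4 and 27.8 CPM in Idh2 R172K. The same peak had 28.9, 30.3, 29.6 and 29.3 CPM in Idh1 R132H, 33.3, 29.1, 31.1 and 29.5 CPM in Idh2 R140Q and 30.6, 28.6, 28.7 and 30.9 CPM in Tet2-/-. The groups overlapped, and the fit gave a log2 fold change of -0.03 (SE 0.06, edgeR adjusted p = 0.723). The other Hoxa3 peaks, at chr6:52198071-52198565 and at chr6:52208797-52209081, had 1.24 ± 0.143 and 3.51 ± 0.435 CPM in WT and were not called (edgeR adjusted p = 0.457 and 0.41).

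Hoxa7, a central member of the cluster, had 2 peaks that both rose. The promoter peak, so named for its class in the deposited annotation, lay at chr6:52216918-52218014. Its centre lay inside the gene, 1107 bp from the nearest annotated start site, and the peak did not overlap the Hoxa7 start window. In WT, replicates 1 to 4 had 30.6, 30.6, 29.2 and 27 CPM, and in Idh2 R172K they had 35.1, 32.6, 34 and 31.1 CPM. The values were 30.4, 32.3, 27.5 and 28.4 CPM in Idh1 R132H, 29.5, 26.4, 28.2 and 28.8 CPM in Idh2 R140Q and 26.4, 27.4, 27 and 28.1 CPM in Tet2-/-. The lowest Idh2 R172K library stood just above the highest WT libraries, so the groups did not overlap. The means were 29.3 ± 1.68 CPM in WT and 33.2 ± 1.75 CPM in Idh2 R172K, a log2 fold change of 0.18 (SE 0.06, edgeR adjusted p = 0.0149). The weaker peak upstream of Hoxa7, at chr6:52220054-52220492, rose too. The WT libraries had 7.32, 7.12, 7.36 and 5.82 CPM in the order of replicates 1 to 4, and the Idh2 R172K libraries 9.42, 6.82, 9.35 and 9.8 CPM. The other genotypes had 6.27, 6.78, 6.9 and 6.98 CPM in Idh1 R132H, 7.27, 7.79, 7.54 and 7.26 CPM in Idh2 R140Q and 5.74, 5.7, 6.53 and 7.44 CPM in Tet2-/-. Idh2 R172K replicate 2 fell among the WT libraries while the other 3 lay above them. The means were 6.91 ± 0.728 and 8.85 ± 1.37 CPM, a log2 fold change of 0.39 (SE 0.11, edgeR adjusted p = 0.002).

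Hoxa9, the member most tied to leukaemia, gave its name to a peak at chr6:52221327-52222388, whose centre lay 1240 bases outside the gene. This peak lay past the end of Hoxa9 that faces Hoxa7, away from the Hoxa9 start window (chr6:52227321-52227620). Its nearest annotated start site, at -3284 bp, was that of Hoxa7. Replicates 1 to 4 gave 36, 36.4, 33.4 and 37.6 CPM in WT and 39.5, 36.5, 41.8 and 41.5 CPM in Idh2 R172K. They gave 36.6, 35.4, 34 and 40.8 CPM in Idh1 R132H, 34.4, 33.2, 35.6 and 34.3 CPM in Idh2 R140Q and 29.6, 32.6, 31.9 and 32.9 CPM in Tet2-/-. Idh2 R172K replicate 2 lay within the WT range and the other 3 above it, whereas the Tet2-/- libraries all lay below WT. The means were 35.9 ± 1.76 CPM in WT, 39.8 ± 2.43 CPM in Idh2 R172K and 31.7 ± 1.46 CPM in Tet2-/-. Idh2 R172K gave a log2 fold change of 0.15 (SE 0.06, edgeR adjusted p = 0.0371) and Tet2-/- gave a log2 fold change of -0.18 (SE 0.06, edgeR adjusted p = 0.114), of which only the former was called. The other Hoxa9 peak, at chr6:52225783-52226515, was the only one with its centre inside the gene. It had 26.6 ± 2.85 CPM in WT and 29.4 ± 2.32 CPM in Idh2 R172K and was not called (edgeR adjusted p = 0.0596).

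Hoxa10, the partner of Hoxa9 in progenitor growth, had 4 raised peaks of 5. The largest rise of the cluster was at a promoter-class peak at chr6:52230431-52230961, between Mir196b and the gene. Its centre lay 501 bases outside Hoxa10, and the peak overlapped Gm52902. The nearest annotated start site was at -166 bp, and the Hoxa10 start windows did not overlap this peak. In WT, replicates 1 to 4 had 12.6, 10.8, 12.1 and 11.4 CPM, and in Idh2 R172K they had 18.6, 14.2, 16.9 and 14.9 CPM. The values were 13.4, 12.6, 11.7 and 13 CPM in Idh1 R132H, 13.9, 9.69, 12.6 and 11.7 CPM in Idh2 R140Q and 11.2, 9.84, 12.9 and 12.6 CPM in Tet2-/-. All Idh2 R172K libraries lay above all WT libraries. The means were 11.7 ± 0.782 and 16.2 ± 1.98 CPM, a log2 fold change of 0.48 (SE 0.10, edgeR adjusted p = 5.88e-05). The exon peak at chr6:52240123-52240869 also separated the groups, with 14 ± 0.984 CPM in WT and 17.4 ± 0.577 CPM in Idh2 R172K and a log2 fold change of 0.30 (SE 0.07, edgeR adjusted p = 0.000643). The exon peaks at chr6:52232227-52232856 and chr6:52233629-52235071 rose by 0.35 and 0.21 on the log2 scale (edgeR adjusted p = 0.0245 and 0.0141), with Idh2 R172K replicate 2 inside the WT range at both. The peak that holds Mir196b had 17.5 ± 1.57 CPM in WT and 18.6 ± 1.83 CPM in Idh2 R172K and was not called (edgeR adjusted p = 0.287).

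Hoxa11, known for limb, kidney and uterus development, had 1 broad promoter peak at chr6:52245073-52246962 that held its whole start window. The WT libraries had 16.9, 15.1, 14.1 and 14.9 CPM in the order of replicates 1 to 4, and the Idh2 R172K libraries 18.3, 16.8, 18.4 and 16.3 CPM. The other genotypes had 14.6, 16.3, 14.8 and 15.2 CPM in Idh1 R132H, 15.5, 14.3, 13.5 and 15 CPM in Idh2 R140Q and 14.9, 12.3, 13.8 and 14.3 CPM in Tet2-/-. Idh2 R172K replicates 2 and 4 lay below WT replicate 1, so the groups overlapped. The means were 15.2 ± 1.18 and 17.5 ± 1.06 CPM, a log2 fold change of 0.20 (SE 0.08, edgeR adjusted p = 0.0278).

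All Idh2 R172K libraries lay above all WT libraries at 4 of the 19 peaks (the Hoxa3 intron peak, the Hoxa7 promoter peak and 2 Hoxa10 peaks), a share near the 20.4% of all tested peaks. They all lay below at 3 of the 19, the 3 lowered peaks, against 23.5% of all tested peaks. Idh2 R172K replicate 2, the shallowest library, was the lowest of its genotype at 5 of the 9 raised peaks, and depth and this difference cannot be told apart for 1 library. The calls at Hoxa9 57.4 kb (without WT replicate 1, 2 or 3, or Idh2 R172K replicate 3 or 4) and Hoxa11 (without WT replicate 2, 3 or 4, or Idh2 R172K replicate 1 or 3) were lost. Those at the Hoxa7 promoter peak and at Hoxa10 68.1 and 69.9 kb were lost without WT replicate 4 or Idh2 R172K replicate 1, and at 68.1 kb also without Idh2 R172K replicate 3. The Hoxa9 peak at 61.7 kb gained a call without WT replicate 2 or Idh2 R172K replicate 2. Positions in kb are distances of the peak centre from that of the Hoxa2 peak. Without WT replicate 4 or Idh2 R172K replicate 1 the total fell from 12 to 8 calls. Library-size scaling left 4 raised and 3 lowered peaks, and cyclic loess scaling 5 raised and 4 lowered, the fourth being the Hoxa3 start peak (-0.15). Over all 123908 tested peaks, TMM gave 31075 higher and 34598 lower. Library size gave 23277 higher and 38486 lower, and loess 31858 higher and 31677 lower. The fold changes of all 10 peaks of Hoxa7 to Hoxa11 stayed above 0 under these scalings, from 0.02 to 0.43 with loess and 0.03 to 0.40 with library size.

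**Figure D4:**
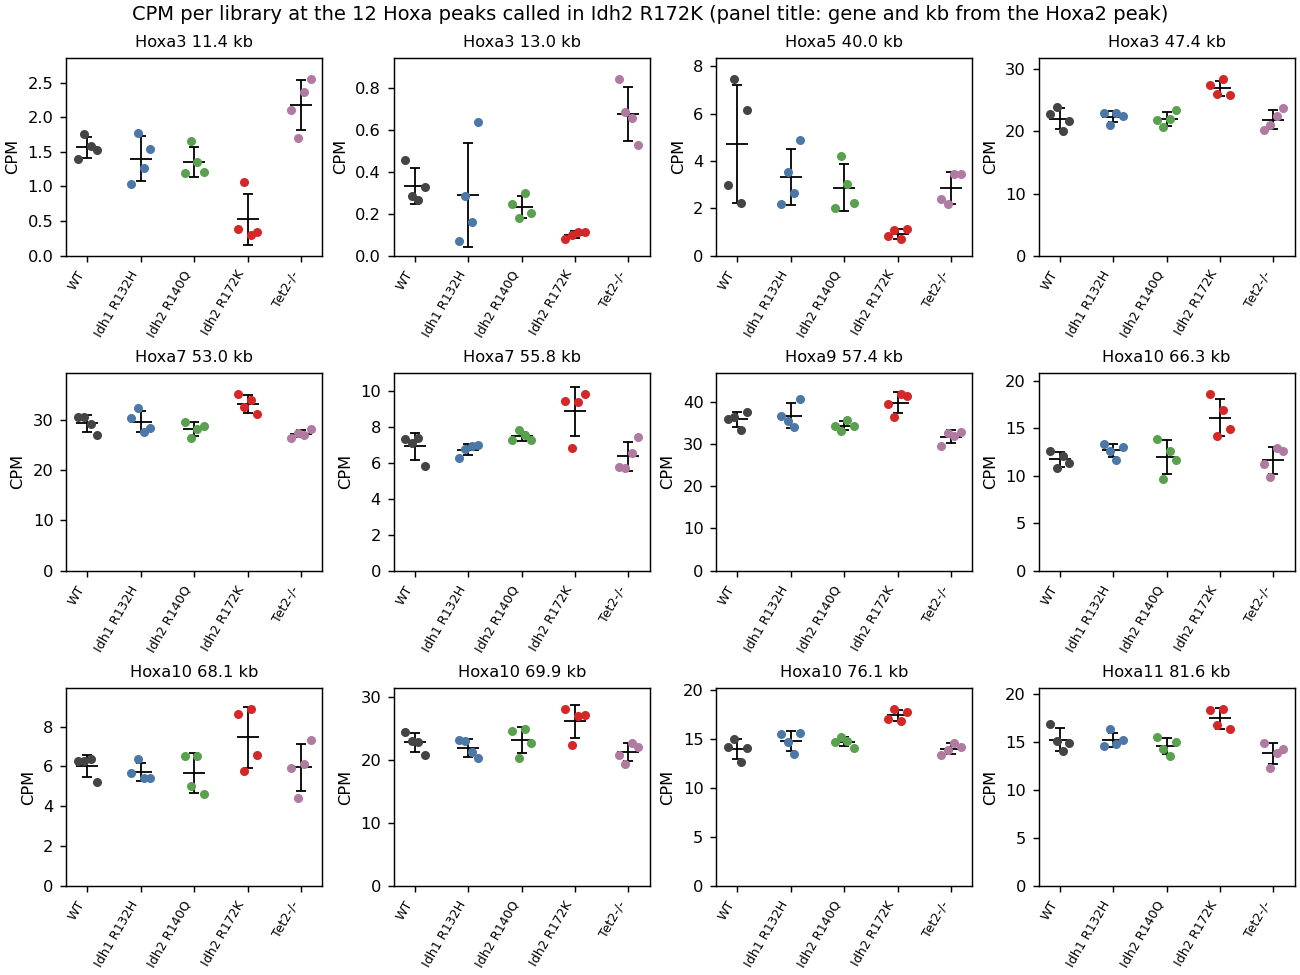
CPM of each of the 20 libraries (points, with mean and SD) by genotype at the 12 Hoxa peaks called in Idh2 R172K against WT, each panel named by gene and distance from the Hoxa2 peak. The Idh2 R172K points lie lowest of the genotype means in the 3 lowered panels and highest in the 9 raised ones, for example 0.927 against 4.71 CPM at Hoxa5 and 16.2 against 11.7 CPM at Hoxa10 66.3 kb.

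**Figure D5:**
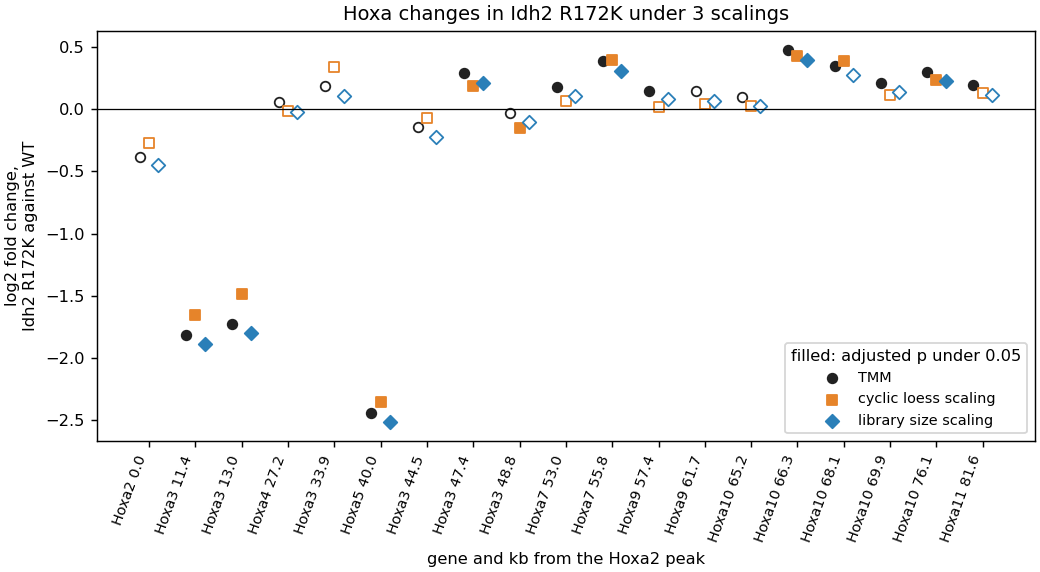
Log2 fold change of Idh2 R172K against WT at the 19 Hoxa peaks under TMM, cyclic loess and library-size scaling, filled where the edgeR adjusted p was under 0.05. The 3 lowered peaks stay filled under all 3 scalings, and the raised peaks of Hoxa7 to Hoxa11 go from 8 filled with TMM to 4 with loess and 3 with library size.

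In Tet2-/-, Idh1 R132H and Idh2 R140Q no Hoxa peak was called against WT with edgeR, and DESeq2 called 0 as well. Of all tested peaks 3.10% were called in Tet2-/-, 0.0274% in Idh1 R132H and 0.0153% in Idh2 R140Q. At an unadjusted p under 0.05 the Hoxa counts were 4, 0 and 1 of 19, against 19667, 6282 and 6810 of all 123908 tested peaks. The median log2 fold change of the 19 peaks was -0.04 in Tet2-/-, -0.02 in Idh1 R132H and -0.04 in Idh2 R140Q. In Tet2-/- the Hoxa9 peak at 57.4 kb was called with cyclic loess scaling (-0.19, edgeR adjusted p = 0.0466) and Hoxa5 with the Xist split as a term (-0.71, edgeR adjusted p = 0.0118). Hoxa5 had 3.32 ± 1.19 CPM in Idh1 R132H, 2.87 ± 1 in Idh2 R140Q and 2.87 ± 0.674 in Tet2-/-. Its log2 fold changes from WT were -0.57 (SE 0.34), -0.79 (SE 0.36) and -0.73 (SE 0.34) in that order. None of these 3 passed the threshold (edgeR adjusted p = 1, 0.898 and 0.314).

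Idh2 R172K was also set directly against the other mutants. Against Idh2 R140Q, the other Idh2 allele, 10 Hoxa peaks were higher and 2 lower, with 21.5% and 25.5% of all tested peaks called in these directions. Against Idh1 R132H 8 were higher and 3 lower (23.3% and 26.7% of all tested peaks), and without Idh2 R172K replicate 3 the total of 11 fell to 7. Against Tet2-/- 11 were higher and 3 lower (20.1% and 24.1% of all tested peaks). Of the 9 peaks raised against WT, 9, 8 and 9 were also higher than in Idh2 R140Q, Idh1 R132H and Tet2-/-, the exception being the Hoxa9 peak at 57.4 kb against Idh1 R132H (0.12, edgeR adjusted p = 0.0948). Of the 3 lowered peaks, 2, 3 and 3 were also lower, the exception being the weakest Hoxa3 peak against Idh2 R140Q (-1.20, edgeR adjusted p = 0.0985). These comparisons share the Idh2 R172K libraries. The summed signal of the cluster was 270 ± 9.43 CPM in Idh1 R132H, 264 ± 9.1 in Idh2 R140Q and 255 ± 13 in Tet2-/-.

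The genes that work with or on the cluster were counted over lists, to be read against the 25.1% higher and 27.9% lower of all tested peaks in Idh2 R172K. In Idh2 R172K the Meis, Pbx and Pknox partners had 49 higher and 27 lower of 162 tested peaks (median log2 fold change 0.16). Regulators of Hox genes, such as Kmt2a, Dot1l and the Polycomb subunits Ezh2 and Bmi1, had 50 higher and 42 lower of 179 (median 0.08), shares near those of all peaks. The Hoxb, Hoxc and Hoxd clusters had 20 higher and 11 lower of 114 (median 0.14). Of the genes beside the cluster on chromosome 6, Snx10, Skap2, Hoxa13, Evx1, Hibadh, Tax1bp1 and Jazf1 together had 23 higher and 54 lower of 159 (median -0.23). In Tet2-/- these lists had 1 higher and 1 lower, 0 and 2, 1 and 0, and 0 and 4 in the same order. In Idh1 R132H and Idh2 R140Q edgeR called 0 in each, with 6, 15, 13 and 12 peaks and 10, 9, 2 and 10 peaks at an unadjusted p under 0.05. Of all 123908 tested peaks, 6282 in Idh1 R132H and 6810 in Idh2 R140Q had such a p.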

How the data were processed

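ATAC-seq counts came from 20 libraries of LSK cells. The authors deposited raw counts per peak, 1 column per library on 1 common peak set, and an annotation of the same peaks with class and distance in bp to the nearest start site. The genome build was mm10 and the tools named were BWA, MACS2, featureCounts, Trim Galore, SAMtools and Picard, per the submitters' processing notes. What a count stands for (read or fragment), any Tn5 shift and the settings were not given in the sources used here. For Idh2 R140Q the 4 column names join Idh1 with R140Q, and they were assigned by that change, which no other genotype carries. Coordinates are those of the deposited annotation, counted from 1. Genes were named from RefSeq GRCm38.p6.

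Counts were tested in R 4.3.3 with edgeR 4.0.16 (TMM scaling, expression filter, robust quasi-likelihood fit, 1 mean per genotype over 20 libraries), 2-sided, with Benjamini-Hochberg adjustment over 123908 peaks and a threshold of 0.05. The filter removed 1435 peaks. The SE is the log2 fold change over the root of the F statistic. The step was tested on simulated data. Alternatives were DESeq2 1.42.0, cyclic loess (limma 3.58.1) and library-size scaling, no filter, the replicate block, a term for the Xist split (15 CPM summed), 2 genotypes only, a 1.5-fold limit and leaving out each library. P-values measure the spread between pools of 2 mice. The Hoxa genes and all lists were chosen with earlier results of these data known. Given with all library values were the peak with the lowest p per gene and the strongest promoter-class peak per gene (and any peak called in another genotype against WT, of which there was none), beside the weakest lowered peak and the raised Hoxa3 intron peak, chosen after their values were seen. Motifs were sought in RefSeq start windows in place of windows around peak centres. From the planned list of neighbouring genes 1 entry is not reported here.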

Additional observations from a re-analysis of the deposited data

Results flagged for a closer look

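In 7 of the 95 groups of 4 libraries (19 peaks in 5 genotypes) the highest or lowest library stood apart from the other 3 by Dixon's criterion at 95%, and chance flags about 1 in 20 groups. WT replicate 4 stood low at 3 peaks: Hoxa2 with 1.93 CPM against 2.56 to 2.66, the upstream Hoxa7 peak with 5.82 against 7.12 to 7.36, and the Hoxa10 exon peak at 68.1 kb with 5.21 against 6.26 to 6.37. Idh2 R172K replicate 2 stood high at the lowered Hoxa3 intron peak with 1.07 CPM against 0.296 to 0.385 and low at the upstream Hoxa7 peak with 6.82 against 9.35 to 9.8. Idh1 R132H replicate 2 was high at Hoxa2 with 2.39 CPM against 1.84 to 1.93. Idh2 R140Q replicate 2 was low at the Hoxa9 peak at 61.7 kb with 25.4 CPM against 26.3 to 26.5.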

How the results depend on the processing

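Against WT, the 12 Hoxa calls in Idh2 R172K became 7 with library-size scaling, 3 beyond 1.5-fold and 5 within the Xist-high libraries, a split chosen after seeing the data that leaves 2 libraries a group. They were 12 with DESeq2, with no filter, with the replicate block, with the Xist term and within the Xist-low libraries, 11 with 2 genotypes only, 9 with cyclic loess, and 8 to 13 without single libraries. The 12 within the Xist-low libraries were not the same peaks. Hoxa11 (edgeR adjusted p = 0.0653) was not called there, and the Hoxa9 peak at 61.7 kb was (edgeR adjusted p = 0.00652). The limit of 1.5-fold left 2 of 12 calls against Idh2 R140Q, 3 of 11 against Idh1 R132H and 3 of 14 against Tet2-/-. Without single libraries the counts were 8 to 12, 7 to 11 and 11 to 14 in that order. In Tet2-/- against WT the count rose from 0 to 1 with cyclic loess and to 1 with the Xist term. The cause was not tested, except that a fold limit lowers counts by construction. Fewer libraries did not always leave fewer calls, since without Idh2 R172K replicate 2 there were 13 against WT. Under the other scalings, tools, terms and filters and without single libraries, the call held at the 3 lowered peaks (the weakest was filtered out of the fit with 2 genotypes only) and at 4 raised ones (Hoxa3 intron at 47.4 kb, upstream Hoxa7, Hoxa10 at 66.3 and 76.1 kb). Beyond 1.5-fold 0 raised peaks were called, and within the Xist-high libraries the Hoxa3 peaks at 47.4 kb (edgeR adjusted p = 0.0937) and 13.0 kb (edgeR adjusted p = 0.157) were not.

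Of the single-peak log2 fold changes, those that crossed 0 were not called in either setting. Hoxa4 in Idh2 R172K (0.06) became -0.01 with loess and -0.02 with library size. In Idh1 R132H the Hoxa7 promoter peak (0.01) became -0.02 and -0.01, and the Hoxa9 peak at 57.4 kb (0.03) became -0.01 with loess. Without single libraries the ranges were -0.05 to 0.01 (Hoxa3 start, Idh2 R172K), -0.38 to 0.02 (Hoxa2, Tet2-/-), -0.02 to 0.12 (Hoxa4, Tet2-/-), -0.02 to 0.09 (Hoxa4, Idh2 R140Q), -0.06 to 0.06 (Hoxa10 at 66.3 kb, Tet2-/-), -0.04 to 0.13 (the same peak, Idh2 R140Q), -0.03 to 0.05 (Hoxa7 promoter, Idh1 R132H), -0.02 to 0.07 (Hoxa9, Idh1 R132H) and -0.04 to 0.05 (Hoxa11, Idh1 R132H). Library-size scaling moved the median of all peaks from 0.01 to -0.07.

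The labels give the replicate numbers no shared source. Deviations of same-numbered libraries correlated at -0.0942 to 0.289 (median 0.101, 40 pairs), so not every pair was above 0.1, against a median of -0.0351 over 120 pairs with different numbers. Of the 20 libraries, 15 were nearest to their own number. Replicates 2 and 4 were the Xist-high ones in every genotype but Tet2-/-, where replicates 3 and 4 were. The Xist split was not taken out of the deviations, so a pairing by number and that split cannot be told apart here. The replicate block changed no count of calls. Naming by the authors' annotated gene was not run, since no table used here pairs its identifiers with symbols.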

Other observations

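Around the cluster, 2 regions were looked at that were chosen after their values were seen. Between Evx1 and Hibadh, a stretch of 227.8 kb without protein-coding genes on the Hoxa13 side, 10 of 12 tested peaks were lower than in WT and 0 higher (edgeR), against 27.9% and 25.1% of all tested peaks, with a median log2 fold change of -1.18 and a range of -1.98 to -0.08. Between Hoxa13 and Evx1, 52.6 kb, 2 of 10 were lower and 2 higher (median 0.16). In Tet2-/- 0 peaks were called in both stretches.

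As a description over the 20 libraries, which share genotypes and scaling, the log2(CPM + 0.1) values of the 9 raised peaks correlated with a median Pearson r of 0.67 (0.39 to 0.83 over 36 pairs), those of the 3 lowered peaks with 0.73 (0.55 to 0.78 over 3 pairs), and raised with lowered peaks with -0.59 (-0.77 to -0.29 over 27 pairs). The raised and lowered sets were chosen by their calls in Idh2 R172K against WT in these same libraries. Positive r within a set and negative r between the sets were therefore built in by that choice. After subtraction of the genotype means the medians were 0.32, 0.29 and -0.08.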
